A study of Mus musculus with 24 samples.

Results

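The 49 genes of ribosome biogenesis described here were followed in iNKT cells. Invariant natural killer T (iNKT) cells recognise lipids on CD1d through a T cell receptor with an invariant alpha chain. The genes were taken from a list of symbols of RNA polymerase I subunits, snoRNP proteins, nucleolar proteins and assembly factors. The rule of that list uses no measured value, but the list was chosen with earlier results of these data known. All 49 symbols matched a gene, so the set was 49 of the 55335 genes in the count table, and all 49 passed the filter on low counts. The cells were sorted from mesenteric lymph nodes of C57BL/6J mice 24 h after oral gavage of either 200 µL PBS or the same volume with 2 µg aGC (alpha-galactosylceramide), the classic glycolipid that activates these cells. The mice were born to dams that had received a fecal transplant (FT), from wild-type donors for WT FT mice and from CD1d-knockout donors for KO FT mice. The labels name no engineered allele in the mice themselves and give no age. With sex, this made 8 groups of 3 libraries, 24 in all. Whether the 3 libraries of each group came from separate mice is not stated in the labels, so p-values reflect only how these libraries vary, and that variation may be technical. Names of the count columns end in _1 for every WT FT library and in _2 for every KO FT library, and the labels do not explain this ending. Donor genotype cannot be told apart from it, nor from dam, litter or cage.

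Ribosome biogenesis starts in the nucleolus, where RNA polymerase I copies the ribosomal DNA into a long precursor. Box C/D and box H/ACA snoRNPs modify that precursor, the SSU processome folds and cuts the part that becomes the small subunit, and separate sets of factors carry the small (40S) and large (60S) subunits toward the cytoplasm. Lymphocytes leaving rest for growth are known to raise this pathway, and the transcription factor MYC, which binds the sequence called the E-box, is known as an activator of many of its genes.

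Library depth ran from 9764931 to 37016768 estimated counts, so 3 counts, the limit that a count of 0 allows, stood for 0.0810 to 0.307 CPM (counts of each library brought to a common total). Levels are CPM with TMM scaling. The labelled cell type was checked first. Trav11, the V segment of the invariant receptor, was at 325 to 880 CPM in the 24 libraries, and Zbtb16, the transcription factor PLZF that defines the lineage, at 30.8 to 84.9 CPM. Cd8a, which most mouse iNKT cells lack, split the groups: it was at 4.79 to 8.10 CPM in PBS females and aGC males and at 131 to 292 CPM in PBS males and aGC females, in both transplants. The 10 naive T cell markers, summed, followed the same split, with 1381 to 1912 CPM in the first 4 groups and 2857 to 4081 CPM in the other 4. Comparisons that average the sexes hold 1 group of each kind on either side, while aGC against PBS within a sex does not. Levels within a kind still differed between transplants, as given below for PBS. The labelled sex fitted the transcripts in all 24 libraries: Xist was at 8.76 to 48.3 CPM in females and at most 0.646 CPM in males, and the Y-linked Eif2s3y at 58.5 to 102.8 CPM in males and at most 0.906 CPM in females. The labels do not say whether the Cd8a split came from the sort, a batch or an exchange of libraries within a sex, and this was not tested, which limits every value given by sex.

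The promoters of the members were read from RefSeq (GRCm38.p6), as windows from 250 bases before to 50 bases after the start, which were given for 44 of the 49. Rrp12, Bop1, Npm1, Fbl and Rrs1 were not matched. The E-box CACGTG, which reads the same on both strands, was in the window of 12 of 44 members (27.3%), against 11.5% of the 10572 tested genes with a window and 8.09% of all 27025 windows. The letters CCGGAAG on either strand, the core bound by ETS factors, were in 16 of 44 (36.4%), against 19.8% and 9.93%. A copy of CACGTG cannot share bases with a copy of CCGGAAG, whereas copies of CCGGAAG on opposite strands can share bases with each other. The 12 genes with an E-box were Rrn3, Mybbp1a, Wdr43, Utp18, Utp20, Imp4, Ltv1, Tsr1, Pno1, Nop2, Pes1 and Nle1, with 13 copies in all, of which 5 lay upstream of the start and 8 in the first 50 transcribed bases. Nop2, a methyltransferase of the large subunit RNA, had both motifs on its sense strand upstream of the start. The stretch is shown because both lie in its 100 bases, in capitals, at chr6:125131783-125131882 on the plus strand.
Nop2 upstream: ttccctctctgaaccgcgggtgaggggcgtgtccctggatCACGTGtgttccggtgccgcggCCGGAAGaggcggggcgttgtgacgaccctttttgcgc
The other E-boxes upstream of a start are shown with their flanks to compare how the sites differ outside the core, which is in capitals. They lie at chr16:13780472-13780501 and chr16:13780639-13780668 for Rrn3 (plus strand), chr11:93885769-93885798 for Utp18 (minus strand) and chr1:34439696-34439725 for Imp4 (plus strand). Their cores start 215, 48, 20 and 121 bases before the start.
Rrn3 distal: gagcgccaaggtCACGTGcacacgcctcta
Rrn3 proximal: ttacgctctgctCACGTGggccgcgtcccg
Utp18: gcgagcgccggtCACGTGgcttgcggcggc
Imp4: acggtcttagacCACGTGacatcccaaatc
A further 2 sites lie in the first transcribed bases of genes described later, Pes1 at chr11:3963965-3963994 (plus strand) and Pno1 at chr11:17211540-17211569 (minus strand).
Pes1: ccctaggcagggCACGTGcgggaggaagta
Pno1: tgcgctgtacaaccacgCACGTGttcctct
A match describes letters in a window and no binding. The median log2 change after aGC was 1.18 for the 12 members with an E-box and 1.65 for the 32 without in WT FT mice, and 1.05 and 1.18 in KO FT mice.

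After aGC all 49 genes rose in WT FT mice and all 49 rose in KO FT mice (edgeR quasi-likelihood test, Benjamini-Hochberg adjusted p under 0.05), where 30.9% and 28.1% of the 15953 genes tested rose. At least 2-fold rises were found for 42 members in WT FT and 34 in KO FT mice, against 11.8% and 8.44% of all genes. The median change of the members was 2.89-fold (1.53 on the log2 scale, range 0.29 to 2.22) in WT FT and 2.27-fold (1.18, range 0.39 to 1.90) in KO FT mice, beside log2 medians of -0.11 and -0.03 over all genes. In RNA of a cell pool, more cells that express these genes and more of the RNA per cell cannot be told apart.

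The share of all counts held by the 49 genes also rose after aGC, with each library scaled by its own total and not by TMM. In WT FT mice it was 0.508 to 0.516% in the 3 libraries of PBS females, 0.575 to 0.584% in PBS males, 1.40% in each library of aGC females and 1.61 to 1.64% in aGC males. In KO FT mice it was 0.545 to 0.548% in PBS females, 0.567 to 0.568% in PBS males, 1.26 to 1.28% in aGC females and 1.21 to 1.24% in aGC males. Every aGC library held more than every PBS library, and after aGC every WT FT library held more than every KO FT library. After PBS the KO FT females lay above the WT FT females and the KO FT males below the WT FT males.

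**Figure D1:**
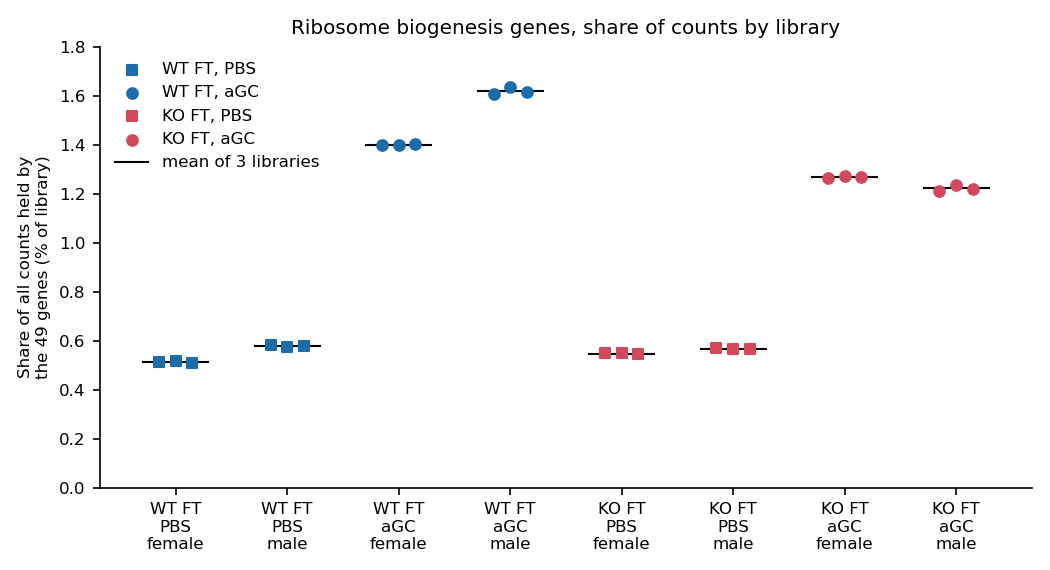
Share of all estimated counts held by the 49 ribosome biogenesis genes (percent, linear axis from 0) in each of the 24 libraries, by transplant, treatment and sex; points are libraries and lines are group means. The aGC libraries sit between 1.21 and 1.64%, all above the PBS libraries at 0.508 to 0.584%.

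The rise was not carried by a few libraries. In WT FT mice every aGC library lay above every PBS library for 46 of 49 genes (17.9% of all genes tested did so), the exceptions being Polr1a, Rrn3 and Utp20. In KO FT mice the count was also 46 (12.6% of all genes), with Polr1a, Nop10 and Utp20 as exceptions. Within sexes, 48 members rose in WT FT females (28.6% of all genes), 48 in WT FT males (31.7%), 46 in KO FT females (27.7%) and 49 in KO FT males (26.8%). A total of 45 members rose in each of these 4 comparisons (10.6% of all genes). Between the groups with low Cd8a, PBS females and aGC males, 47 members rose and 1 (Rrn3) fell in WT FT mice, where 28.2% of all genes rose and 32.0% fell, and 49 rose in KO FT mice (25.6% of all genes). Treatment and sex cannot be told apart in that comparison. When the 3 libraries of each group were summed to 1 profile, so that only differences between the 8 groups counted as spread, 43 members rose in WT FT (7.39% of all genes) and 33 in KO FT mice (1.92%).

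**Figure D2:**
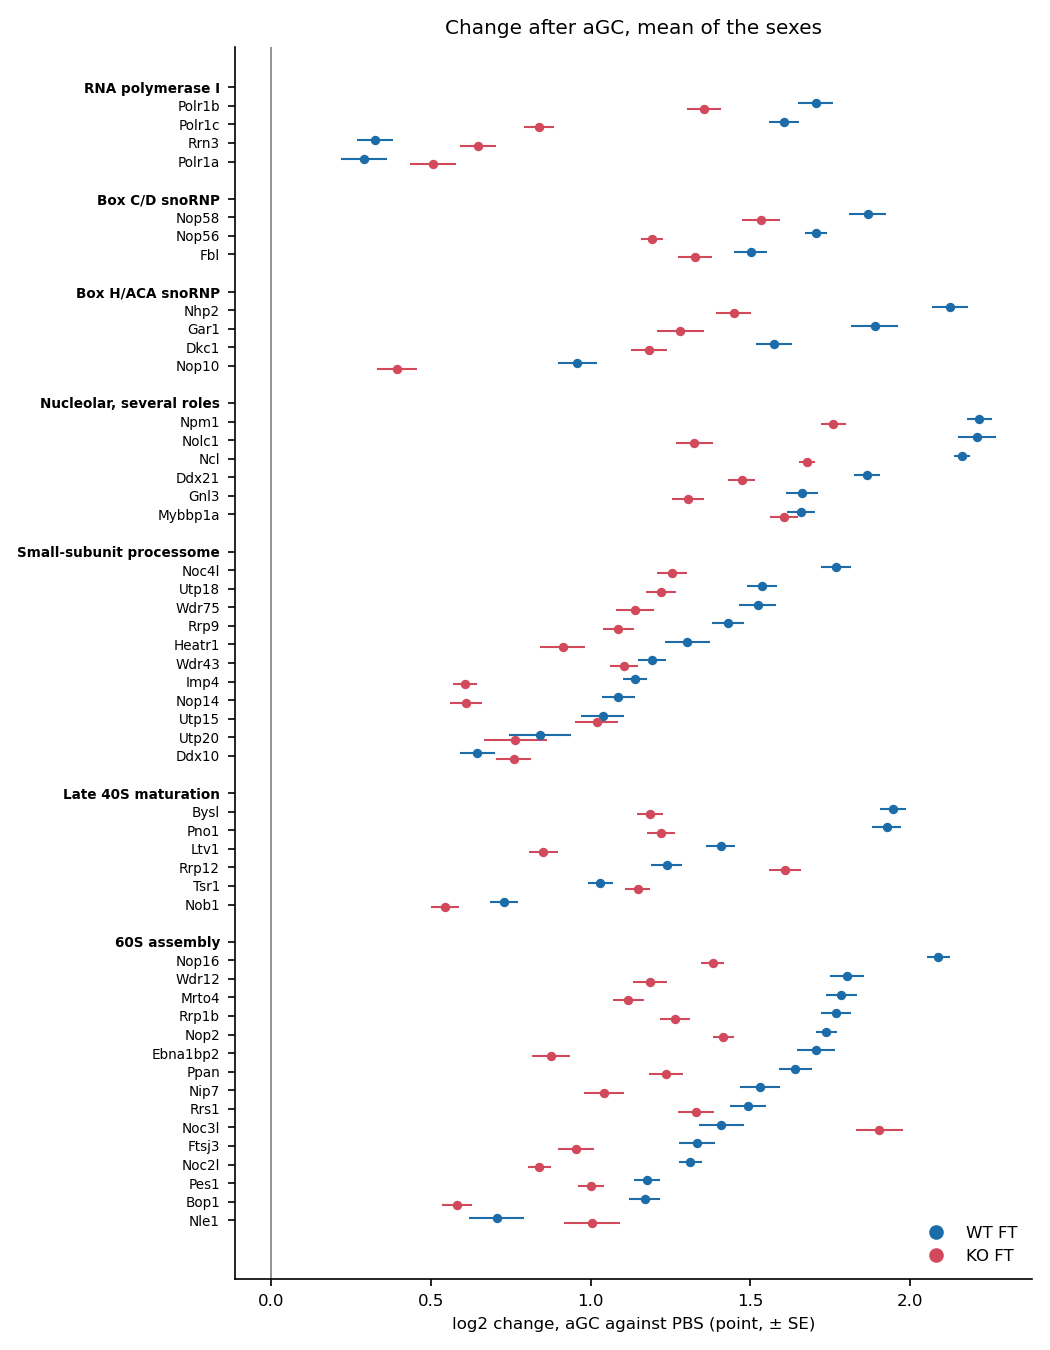
Log2 change after aGC (horizontal axis) of each of the 49 genes, grouped by role, in WT FT and KO FT mice; points are estimates over the sexes and bars are SE. All points lie above 0, and for 42 of 49 genes the WT FT point lies farther right.

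RNA polymerase I genes had the smallest changes as a class, with a median log2 change of 0.97 in WT FT and 0.74 in KO FT mice over 4 genes, and their members differed. Polr1b, the second largest subunit of the enzyme, and Polr1c, a subunit shared with RNA polymerase III, rose in all 4 sex and transplant combinations. Polr1b in WT FT mice stood at 53.02, 50.3 and 60.7 CPM in PBS females, 35.8, 37.3 and 42.2 CPM in PBS males, 134, 127 and 132 CPM in aGC females and 168, 186 and 157 CPM in aGC males. Polr1b in KO FT mice stood at 51.3, 52.8 and 50.3 CPM in PBS females, 57.9, 65.5 and 67.6 CPM in PBS males, 144, 157 and 154 CPM in aGC females and 140.2, 143 and 141 CPM in aGC males. No aGC library of Polr1b overlapped a PBS library, and the rise was 3.26-fold in WT FT and 2.56-fold in KO FT mice (log2 1.70 ± 0.05 and 1.36 ± 0.05, SE, adjusted p = 2.45e-18 and 3.35e-16). Polr1c libraries of WT FT mice read 44.01, 40.4 and 40.7 CPM in females and 41.5, 42.7 and 45.6 CPM in males after PBS, then 135, 135 and 139 CPM and 129.8, 120.4 and 118 CPM after aGC. Polr1c libraries of KO FT mice read 48.2, 48.7 and 54.8 CPM in females and 53.1, 51.2 and 56.6 CPM in males after PBS, then 90.6, 95.7 and 102 CPM and 88.02, 88 and 94.2 CPM after aGC. Polr1c rose 3.04-fold in WT FT but 1.79-fold in KO FT mice, again with no overlap. Polr1a encodes the largest, catalytic subunit, and its change was far smaller. Polr1a in WT FT mice stood at 30.6, 30.8 and 28.8 CPM in PBS females, 35.9, 35.9 and 29.9 CPM in PBS males, 47.4, 55.99 and 43.3 CPM in aGC females and 31.1, 31.6 and 30.6 CPM in aGC males. Polr1a in KO FT mice stood at 37.3, 39.1 and 41.3 CPM in PBS females, 26.8, 27.9 and 32.5 CPM in PBS males, 47.8, 43.2 and 40.6 CPM in aGC females and 51.3, 47.3 and 58.6 CPM in aGC males. In WT FT mice the aGC females were high while the aGC males overlapped the PBS libraries. In KO FT mice the aGC males were high and the aGC females overlapped. The averages over sexes passed the test (log2 0.29 ± 0.07, adjusted p = 0.0011, in WT FT and 0.51 ± 0.07, adjusted p = 1.88e-06, in KO FT), but the change in WT FT males was -0.12 (adjusted p = 0.303) and that in KO FT females 0.16 (adjusted p = 0.194). Rrn3, the initiation factor TIF-IA that brings the polymerase to the promoter, rose by log2 0.33 ± 0.06 in WT FT and 0.65 ± 0.06 in KO FT mice. Rrn3 libraries of WT FT mice read 68.7, 71.6 and 71.8 CPM in females and 37.4, 42.3 and 43.8 CPM in males after PBS, then 76.8, 74.7 and 71.8 CPM and 65.4, 60.5 and 58.2 CPM after aGC. Rrn3 libraries of KO FT mice read 46.01, 43 and 43.2 CPM in females and 58.6, 65.3 and 55.03 CPM in males after PBS, then 97.5, 82.01 and 81.8 CPM and 73.6, 80.4 and 70.2 CPM after aGC. The PBS females of WT FT mice overlapped their aGC females, and between PBS females and aGC males Rrn3 was lower after aGC (log2 -0.20, adjusted p = 0.0314).

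The box C/D snoRNP guides methylation of ribosomal RNA. Its 3 members rose in both transplants, by a median log2 change of 1.71 in WT FT and 1.33 in KO FT mice. Nop56, a core protein of the particle at chr2:130274430-130279313 on the plus strand, had the highest level per length of all 49 genes (604 CPM per kilobase of coding transcript over the 24 libraries). Nop56 in WT FT mice stood at 418, 436 and 387 CPM in PBS females, 474, 468 and 458 CPM in PBS males, 1387, 1468 and 1430 CPM in aGC females and 1379, 1542 and 1396 CPM in aGC males. Nop56 in KO FT mice stood at 468, 450.5 and 441 CPM in PBS females, 428, 430.3 and 413 CPM in PBS males, 1013, 1040 and 1057 CPM in aGC females and 1004, 924 and 975 CPM in aGC males. No aGC library overlapped a PBS library, and the rises were 3.26-fold and 2.29-fold (log2 1.71 ± 0.03 and 1.19 ± 0.03, adjusted p = 6.49e-22 and 8.33e-19). Nop58 libraries of WT FT mice read 84.7, 83.4 and 72.4 CPM in females and 73.4, 81.8 and 82.9 CPM in males after PBS, then 234, 227 and 233 CPM and 387, 345 and 369 CPM after aGC. Nop58 libraries of KO FT mice read 98.6, 95.6 and 81.9 CPM in females and 82.04, 81.4 and 84.7 CPM in males after PBS, then 301, 254 and 239.7 CPM and 251, 251 and 222 CPM after aGC. Nop58, the paralog that pairs with Nop56 in the particle, rose most in WT FT males, and its groups did not overlap between treatments. Fbl in WT FT mice stood at 71.5, 71.4 and 61.6 CPM in PBS females, 98.99, 98.03 and 96.3 CPM in PBS males, 197, 228 and 209 CPM in aGC females and 249, 260 and 251 CPM in aGC males. Fbl in KO FT mice stood at 77.6, 86.6 and 85.99 CPM in PBS females, 81.3, 73.03 and 80.3 CPM in PBS males, 183, 203 and 197 CPM in aGC females and 212, 188 and 229.8 CPM in aGC males. Fbl encodes fibrillarin, the methyltransferase, and rose 2.83-fold and 2.51-fold without overlap. Of the 31-base words in Fbl transcripts 21.8% also occur in other genes, nearly all in Tulp4 (21.3%), and of those in Nop56 22.4% do. The split of reads between such genes by the authors' estimator is uncertain. As assigned, Tulp4 held 38995 counts against 58408 for Fbl. The 13 genes that share words with Nop56 held only 1418 together, against 321755 for Nop56.

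The box H/ACA snoRNP makes pseudouridine, and its 4 members rose by a median log2 change of 1.73 in WT FT and 1.23 in KO FT mice. Nhp2 libraries of WT FT mice read 98.2, 95.02 and 93.8 CPM in females and 117, 103 and 112 CPM in males after PBS, then 422, 415 and 388 CPM and 482, 481 and 517 CPM after aGC. Nhp2 libraries of KO FT mice read 111, 114 and 120.3 CPM in females and 87, 81.8 and 79.03 CPM in males after PBS, then 258, 259.5 and 274 CPM and 224, 270.2 and 309 CPM after aGC. Nhp2, an RNA-binding protein of the particle at chr11:51619735-51623714 on the plus strand, rose 4.36-fold and 2.73-fold, and its aGC libraries lay higher in WT FT than in KO FT mice without overlap. Gar1 in WT FT mice stood at 15.1, 15.5 and 13.9 CPM in PBS females, 20.5, 19.7 and 18.2 CPM in PBS males, 56.4, 52.5 and 55.4 CPM in aGC females and 74.5, 63.04 and 79.99 CPM in aGC males. Gar1 in KO FT mice stood at 19.2, 14.9 and 17.7 CPM in PBS females, 19.5, 20.1 and 22.2 CPM in PBS males, 38.4, 45.3 and 42.3 CPM in aGC females and 52.7, 52.6 and 44.8 CPM in aGC males. Gar1, another core protein, was scarcer per length than Nhp2 (28.7 against 220.4 CPM per kilobase over all libraries) and rose 3.703-fold and 2.43-fold. Nop10 libraries of WT FT mice read 128, 114 and 115 CPM in females and 125, 108 and 123 CPM in males after PBS, then 209.9, 217 and 204 CPM and 248, 248 and 264 CPM after aGC. Nop10 libraries of KO FT mice read 131, 144 and 163 CPM in females and 109, 123 and 104 CPM in males after PBS, then 170.1, 154 and 166 CPM and 156, 166 and 199 CPM after aGC. Nop10, the smallest protein of the particle, moved least in the class: 1.94-fold in WT FT and 1.31-fold in KO FT mice. In KO FT females the Nop10 change did not pass the test (log2 0.16, adjusted p = 0.12), and 1 PBS library lay above 1 aGC library there. Dkc1, the pseudouridine synthase dyskerin, rose 2.98-fold and 2.27-fold.

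The abundant nucleolar proteins of several functions changed most, with a median log2 change of 2.01 in WT FT and 1.54 in KO FT mice over 6 genes. Npm1 encodes nucleophosmin, a chaperone that forms the outer layer of the nucleolus, at chr11:33152287-33163206 on the minus strand. Npm1 in WT FT mice stood at 252, 254 and 255 CPM in PBS females, 237, 244 and 258 CPM in PBS males, 929, 946 and 927 CPM in aGC females and 1493, 1407 and 1434 CPM in aGC males. Npm1 in KO FT mice stood at 256, 274 and 242 CPM in PBS females, 202, 235 and 201 CPM in PBS males, 799.5, 774 and 761 CPM in aGC females and 817, 835 and 774 CPM in aGC males. Npm1 had the largest average change in the whole set in WT FT mice, 4.65-fold (log2 2.22 ± 0.04, adjusted p = 7.60e-23), and rose 3.39-fold in KO FT mice. The aGC males of WT FT mice were the highest of all libraries by a wide margin. Of the 31-base words of Npm1 29.4% recur among 384 other annotated genes. Ncl encodes nucleolin, which binds the ribosomal RNA precursor, at chr1:86344719-86359400 on the minus strand. Ncl libraries of WT FT mice read 397, 382 and 389.5 CPM in females and 444, 442 and 463 CPM in males after PBS, then 1672, 1712 and 1717 CPM and 2063, 2061 and 2063 CPM after aGC. Ncl libraries of KO FT mice read 479.9, 469.8 and 451 CPM in females and 469, 469 and 460.1 CPM in males after PBS, then 1541, 1538 and 1496 CPM and 1440, 1527 and 1418 CPM after aGC. The WT FT males were highest after aGC, every KO FT aGC library lay below every WT FT aGC library, and the rises were 4.47-fold (log2 2.16 ± 0.03, adjusted p = 8.36e-26) and 3.201-fold (log2 1.68 ± 0.03, adjusted p = 1.22e-23). Gnl3 in WT FT mice stood at 105, 106 and 99.7 CPM in PBS females, 87.7, 105 and 95.01 CPM in PBS males, 268, 261 and 272 CPM in aGC females and 381, 359 and 381 CPM in aGC males. Gnl3 in KO FT mice stood at 97.9, 91.3 and 89.2 CPM in PBS females, 88.4, 101 and 94.4 CPM in PBS males, 268, 227 and 230.2 CPM in aGC females and 236, 222 and 209 CPM in aGC males. Gnl3, the GTP-binding protein nucleostemin, was the member of this class with the smallest average change and still rose 3.17-fold and 2.47-fold. Nolc1, a snoRNP chaperone, rose 4.62-fold in WT FT but 2.504-fold in KO FT mice. Ddx21, an RNA helicase, rose 3.64-fold and 2.77-fold, and Mybbp1a, a nucleolar protein that binds MYB, 3.16-fold and 3.04-fold.

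The 11 genes of the SSU processome, the large particle on the nascent small subunit, rose by a median log2 change of 1.19 in WT FT and 1.02 in KO FT mice. Noc4l libraries of WT FT mice read 108, 111 and 95.9 CPM in females and 102, 106 and 94.6 CPM in males after PBS, then 360.4, 348 and 355 CPM and 321, 372 and 349.5 CPM after aGC. Noc4l libraries of KO FT mice read 108, 105 and 113 CPM in females and 115, 105 and 96.99 CPM in males after PBS, then 250.4, 273 and 264 CPM and 241, 250 and 256 CPM after aGC. Noc4l, the partner of Nop14 in the particle, had the largest change of the class, 3.404-fold and 2.39-fold, with no overlap. Utp18 in WT FT mice stood at 99, 104 and 97.2 CPM in PBS females, 98.8, 98.3 and 103 CPM in PBS males, 246, 250.4 and 244 CPM in aGC females and 351, 322 and 349 CPM in aGC males. Utp18 in KO FT mice stood at 97.7, 101 and 83.1 CPM in PBS females, 82.97, 86.3 and 81.3 CPM in PBS males, 222, 208 and 215 CPM in aGC females and 201, 215 and 179.6 CPM in aGC males. Utp18, a WD-repeat subunit with an E-box just before its start, came next with 2.898-fold and 2.33-fold. Ddx10 libraries of WT FT mice read 48.4, 47.4 and 51.5 CPM in females and 42.9, 43.8 and 44.8 CPM in males after PBS, then 70.2, 68.1 and 74.9 CPM and 75.3, 73.3 and 73.6 CPM after aGC. Ddx10 libraries of KO FT mice read 41.01, 42.1 and 36.2 CPM in females and 48.3, 54.2 and 51.6 CPM in males after PBS, then 77.95, 78.9 and 78.9 CPM and 79.1, 81.2 and 63.8 CPM after aGC. Ddx10, an RNA helicase, had the smallest average change in the class and was the only one of these 3 that changed less in WT FT (1.56-fold) than in KO FT mice (1.69-fold); the difference between the responses did not pass the test (log2 0.11 ± 0.08, adjusted p = 0.246). Utp20, a very long scaffold protein at chr10:88746607-88826804 on the minus strand, was the scarcest member per length, 2.65 CPM per kilobase. Utp20 in WT FT mice stood at 14.6, 14.5 and 13.4 CPM in PBS females, 19.04, 21.6 and 20.2 CPM in PBS males, 21.4, 19.9 and 18.01 CPM in aGC females and 39.4, 50.2 and 50.5 CPM in aGC males. Utp20 in KO FT mice stood at 23.9, 18.9 and 18.9 CPM in PBS females, 8.83, 11.7 and 14.4 CPM in PBS males, 20.4, 17.4 and 23.01 CPM in aGC females and 35.4, 33.6 and 32.6 CPM in aGC males. After aGC the males were high in both transplants, while the females stayed within the range of the PBS libraries of their transplant. The change in females was 0.48 (adjusted p = 0.00545) in WT FT and -0.02 (adjusted p = 0.937) in KO FT mice, against 1.21 and 1.55 in males.

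Factors of late 40S maturation rose by a median log2 change of 1.32 in WT FT and 1.17 in KO FT mice over 6 genes. Pno1 libraries of WT FT mice read 38.96, 39.1 and 39.5 CPM in females and 36.8, 35.1 and 36.4 CPM in males after PBS, then 133, 122 and 121 CPM and 158, 159.5 and 171 CPM after aGC. Pno1 libraries of KO FT mice read 39.9, 44.3 and 44.4 CPM in females and 40.2, 37.7 and 33.8 CPM in males after PBS, then 94.4, 95.9 and 92.3 CPM and 89.8, 94.8 and 91.5 CPM after aGC. Pno1, an RNA-binding factor that leaves the small subunit in the cytoplasm, rose 3.8-fold in WT FT and 2.33-fold in KO FT mice. Bysl, known as bystin, an assembly factor of the small subunit, lies at chr17:47599331-47611492 on the minus strand. Bysl in WT FT mice stood at 61.4, 64.6 and 61.5 CPM in PBS females, 55.05, 55.9 and 53.7 CPM in PBS males, 219, 224 and 222 CPM in aGC females and 227, 240.2 and 221 CPM in aGC males. Bysl in KO FT mice stood at 73.6, 77.9 and 73.5 CPM in PBS females, 65, 56.2 and 59.2 CPM in PBS males, 157, 159 and 167 CPM in aGC females and 148, 134 and 151 CPM in aGC males. Its rise was 3.85-fold and 2.27-fold without overlap, and the KO FT aGC libraries lay between the PBS libraries and the WT FT aGC libraries. Bysl shares 10.2% of its 31-base words with other genes, of which 8.66 percentage points lie in Ccnd3, which held more counts (232101 against 48538 in all libraries). Nob1 libraries of WT FT mice read 80.2, 76.6 and 76.1 CPM in females and 121, 108 and 105 CPM in males after PBS, then 165, 163 and 162 CPM and 140.3, 149 and 146 CPM after aGC. Nob1 libraries of KO FT mice read 85.8, 85.4 and 95.8 CPM in females and 96.9, 98.4 and 95.1 CPM in males after PBS, then 135, 141 and 145 CPM and 119.8, 135 and 136 CPM after aGC. Nob1, the endonuclease that makes the final cut at the end of 18S RNA, moved least, 1.66-fold and 1.46-fold, without overlap between treatments. Rrp12 in WT FT mice stood at 39.3, 36.6 and 38.97 CPM in PBS females, 53.95, 46.4 and 47.7 CPM in PBS males, 93.4, 90.3 and 93.4 CPM in aGC females and 115, 119 and 108 CPM in aGC males. Rrp12 in KO FT mice stood at 30.4, 32.8 and 32.3 CPM in PBS females, 52.3, 43.4 and 46.4 CPM in PBS males, 114, 118 and 123 CPM in aGC females and 122, 112 and 118 CPM in aGC males. Rrp12, an export factor of both subunits, rose 2.36-fold in WT FT and more, 3.05-fold, in KO FT mice.

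The 15 genes of the pre-60S particle rose by a median log2 change of 1.53 in WT FT and 1.12 in KO FT mice. Nop16, a nucleolar protein of the large subunit path, lies at chr13:54584185-54590090 on the minus strand. Nop16 libraries of WT FT mice read 78.9, 85.02 and 76.4 CPM in females and 69.2, 67.8 and 73.4 CPM in males after PBS, then 309, 294 and 297 CPM and 329, 356 and 331 CPM after aGC. Nop16 libraries of KO FT mice read 85.5, 88.3 and 91.4 CPM in females and 71.04, 72.3 and 69.5 CPM in males after PBS, then 204, 212 and 213 CPM and 199, 200.4 and 212 CPM after aGC. Its aGC libraries all lay above the PBS libraries, with rises of 4.25-fold (log2 2.09 ± 0.04, adjusted p = 4.37e-23) and 2.61-fold (log2 1.38 ± 0.04, adjusted p = 1.47e-19). Noc3l in WT FT mice stood at 13.7, 14.5 and 14.3 CPM in PBS females, 15.9, 15.3 and 16.8 CPM in PBS males, 34.7, 40.04 and 32.2 CPM in aGC females and 44.7, 43.9 and 45.4 CPM in aGC males. Noc3l in KO FT mice stood at 15.1, 17.4 and 14.9 CPM in PBS females, 7.98, 8.08 and 8.62 CPM in PBS males, 48.3, 44.8 and 42.4 CPM in aGC females and 43.97, 42.6 and 34.05 CPM in aGC males. Noc3l, a partner of Noc2l in early large subunits, was the gene with the largest rise in KO FT mice, 3.74-fold against 2.65-fold in WT FT mice, from PBS males of KO FT mice that were the lowest of all groups. Noc2l libraries of WT FT mice read 329.8, 329.6 and 312 CPM in females and 403, 401 and 391 CPM in males after PBS, then 906, 914 and 909 CPM and 844, 931 and 849 CPM after aGC. Noc2l libraries of KO FT mice read 355, 346 and 358 CPM in females and 402, 361 and 392 CPM in males after PBS, then 657, 699.5 and 737 CPM and 606, 606 and 657 CPM after aGC. Noc2l was among the 5 most abundant members per length (204 CPM per kilobase), and 19.9% of its 31-base words also lie in Samd11, which held 79 counts in all. It rose 2.48-fold and 1.79-fold. Nle1 in WT FT mice stood at 25.9, 29.5 and 22.2 CPM in PBS females, 32.2, 27.4 and 25.4 CPM in PBS males, 39.95, 43.4 and 46.7 CPM in aGC females and 43.1, 51.98 and 40.1 CPM in aGC males. Nle1 in KO FT mice stood at 17.4, 17.5 and 20.3 CPM in PBS females, 23.2, 22.2 and 26.1 CPM in PBS males, 44.1, 44.6 and 50.4 CPM in aGC females and 39.6, 32.7 and 41.03 CPM in aGC males. Nle1, a WD-repeat factor known as Notchless homolog, had the smallest change of the class averaged over the transplants, 1.63-fold in WT FT and 2.01-fold in KO FT mice. The Pes1, Bop1 and Wdr12 proteins form 1 complex, and the genes rose 2.26-fold, 2.25-fold and 3.49-fold in WT FT mice and 2.002-fold, 1.496-fold and 2.27-fold in KO FT mice. Pes1 had 34.9% of its 31-base words shared with other genes, most with Gm5910, which held 104 counts in all.

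**Figure D3:**
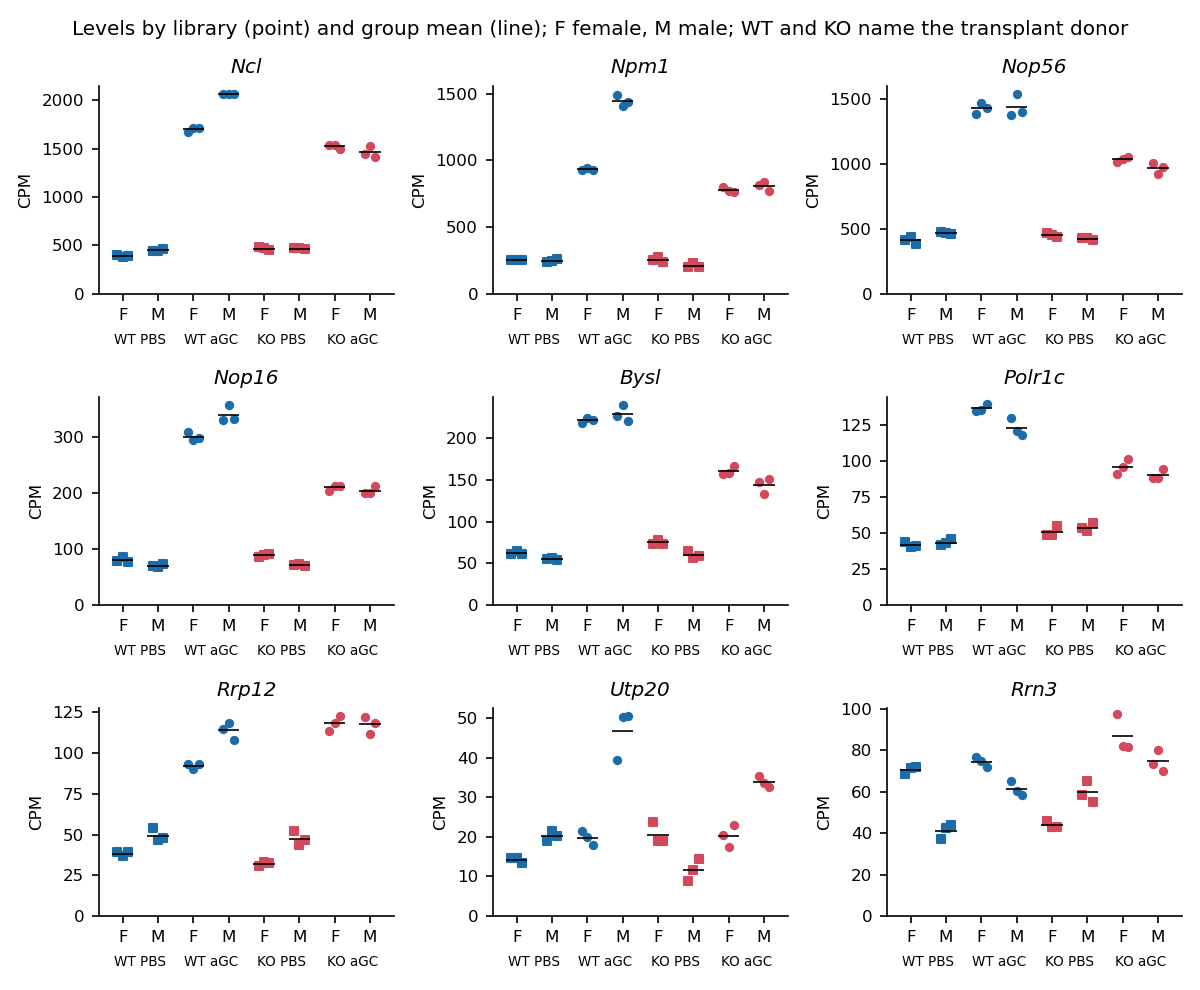
Level in CPM (linear axes from 0) of Ncl, Npm1, Nop56, Nop16, Bysl, Polr1c, Rrp12, Utp20 and Rrn3 in the 24 libraries, by transplant, treatment and sex; points are libraries and lines are group means. The aGC libraries lie above all PBS libraries of their transplant except for Utp20, which is high in aGC males, and for Rrn3 in WT FT mice.

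The rest of the pathway, from lists of other genes of the same roles, moved the same way, though not without exception. Of all genes tested 30.9% rose and 37.5% fell in WT FT mice, and 28.1% rose and 30.1% fell in KO FT mice. In WT FT mice 34 of 35 other small subunit genes rose and 1 fell, and 38 of 42 other large subunit genes rose and 1 fell. In KO FT mice these counts were 30 up and 2 down, and 38 up and 2 down. Among them Utp4 and Tbl3, SSU processome subunits, rose 2.64-fold and 3.25-fold in WT FT mice, Rcl1, an endonuclease-like factor, 2.602-fold, and Nifk, Rsl24d1 and Rrp15 of the large subunit path 2.81-fold, 2.73-fold and 2.998-fold. Mdn1, a giant ATPase of the large subunit path, and Nvl, another ATPase there, did not pass in WT FT mice (log2 0.20 ± 0.13 and 0.08 ± 0.07, adjusted p = 0.169 and 0.295). All 11 other snoRNP genes rose in WT FT and 9 in KO FT mice. The helicases Ruvbl2 and Ruvbl1, which help assemble snoRNPs, rose 4.18-fold and 2.98-fold in WT FT mice, and the shared protein Snu13 2.62-fold. Of 13 genes of the RNA exosome, which trims the precursor, 12 rose in WT FT and 10 in KO FT mice. Exosc2, Mphosph6 and Dis3 rose 2.25-fold, 1.995-fold and 2.36-fold in WT FT mice, and C1d did not pass (log2 -0.05 ± 0.07, adjusted p = 0.594).

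Both polymerases had genes that moved either way, and their counts are to be read against the same shares of all genes. Of 11 other RNA polymerase I genes 7 rose and 1 fell in WT FT mice, and 8 rose and 2 fell in KO FT mice, with median log2 changes of 0.16 and 0.33. Cd3eap, Polr1e and Polr1d, all subunits, rose 2.697-fold, 2.08-fold and 1.66-fold in WT FT mice. Ubtf, the factor that opens ribosomal DNA, was at log2 0.08 ± 0.04 (adjusted p = 0.0849) and the subunit Znrd1 at 0.16 ± 0.07 (adjusted p = 0.0698). Of 21 genes of RNA polymerase III, which makes 5S RNA and tRNA, 14 rose and 4 fell in WT FT and 12 rose and 4 fell in KO FT mice. Polr3k rose 2.18-fold in WT FT mice, and Maf1, the repressor of the enzyme, fell to 0.573 of its PBS level. The large subunits Polr3a and Polr3b did not pass (log2 0.03 ± 0.06 and -0.05 ± 0.12, adjusted p = 0.663 and 0.736).

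Myc itself was measured beside its network. Myc libraries of WT FT mice read 156, 157 and 151 CPM in females and 243, 226 and 227 CPM in males after PBS, then 852, 816 and 753 CPM and 842, 856 and 842 CPM after aGC. Myc libraries of KO FT mice read 183, 181 and 187 CPM in females and 186, 164 and 170.1 CPM in males after PBS, then 591, 699 and 679 CPM and 475, 578 and 609.5 CPM after aGC. Myc rose 4.36-fold in WT FT (log2 2.12 ± 0.05, adjusted p = 3.51e-20) and 3.38-fold in KO FT mice (log2 1.76 ± 0.05, adjusted p = 2.50e-18), with every aGC library above every PBS library. Of the 10 genes of the MYC network 2 rose and 5 fell in WT FT mice, and 1 rose and 3 fell in KO FT mice, where 37.5% and 30.1% of all genes fell. Among those that fell, Mxd4 and Mxd1, which bind E-boxes as repressors, went to 0.639 and 0.526 of their PBS levels, while Mga and Mlx did not pass (adjusted p = 0.0643 and 0.714).

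Markers of other cells moved with aGC too, and their counts are to be read against the same 37.5% and 30.1% of all genes that fell. Of 10 B cell markers 8 were tested, of which 2 rose and 5 fell in WT FT and 3 fell in KO FT mice. The B cell markers, summed, ran from 974 to 1094 CPM in the PBS groups and from 464 to 732 CPM in the aGC groups. Nearly all of that sum was Ighm, while Pax5 reached at most 1.29 CPM and was at 0 in some libraries. Of the 10 iNKT markers 9 fell and 1 rose in WT FT mice and 7 fell in KO FT mice, and their sum ran from 5375 to 6943 CPM after PBS and from 4592 to 5399 CPM after aGC. Of 10 naive T cell markers 8 fell and 1 rose in WT FT mice, and 7 fell and 1 rose in KO FT mice. The regulatory T cell markers, summed, ran from 460 to 554 CPM after PBS and from 363 to 580 CPM after aGC. The 10 myeloid markers, summed, ran from 130 to 247 CPM after PBS and from 118 to 177 CPM after aGC, and of the 5 stromal and epithelial markers Col3a1 and Pdpn were at 0 in some libraries. The part of these shifts in the rise of the 49 genes was not tested. Between the groups with low Cd8a the median log2 change of the members was 1.72 in WT FT and 1.08 in KO FT mice. Those groups are PBS females and aGC males, so treatment and sex cannot be told apart there.

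How alike the genes moved was described by correlating the changes of the 49 genes between comparisons that share no library. Between WT FT and KO FT mice Pearson's r was 0.71 and Spearman's rho 0.72 over both sexes, 0.46 and 0.39 in females, and 0.66 and 0.67 in males. Between the sexes they were 0.69 and 0.68 in WT FT mice and 0.41 and 0.48 in KO FT mice. These are values across genes, which are not independent replicates.

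Between transplants after PBS, the genes did not move together. Of the members 10 were higher in KO FT than in WT FT mice, 7 were lower and 32 did not pass, while 14.6% of all genes were higher and 14.8% lower. The median of the members was 0.04 on the log2 scale, beside 0.00 over all genes. The 10 higher genes were Polr1b, Polr1c, Ncl, Nolc1, Ddx21, Nop14, Heatr1, Bysl, Bop1 and Ebna1bp2, and the 7 lower ones were Rrp9, Wdr43, Utp18, Rrp12, Nop2, Noc3l and Nle1. The lowest adjusted p-values belonged to Ncl (log2 0.16 ± 0.02, adjusted p = 6.37e-05), Polr1c (0.29 ± 0.05, adjusted p = 6.78e-05) and Polr1b (0.32 ± 0.05, adjusted p = 1.28e-04). Polr1c was the sole member with every KO FT library above every WT FT library (1.67% of all genes). By sex, 18 members were higher and 5 lower in females (14.9% of all genes each way), and 10 were higher and 16 lower in males (21.1% and 21.4%). Between the sexes 11 members passed in opposite directions (11.1% of all genes) and 2 in the same direction (4.12%), though the difference itself was not tested. Polr1b was at -0.09 in females and 0.73 in males, Noc3l at 0.15 and -0.96, and Rrn3 at -0.68 (adjusted p = 2.61e-06) and 0.54 (adjusted p = 1.42e-05). When the first library of KO FT PBS females was left out, 6 members were higher in place of 10. With 1 profile per group no member passed and 0 reached an unadjusted p under 0.05, and 0% of all genes passed in either direction. Cd8a was lower in KO FT mice (log2 -0.66 ± 0.06, adjusted p = 2.94e-08), as was Cd8b1 (-0.49 ± 0.04, adjusted p = 2.41e-09). Their sum was 854 to 863 CPM in WT FT and 393 to 396 CPM in KO FT males, and overlapped in females. Naive T cell markers, summed, were at 3933 to 4081 CPM in WT FT and 3635 to 3710 CPM in KO FT males. In females that sum was 1906 to 1912 CPM and 1747 to 1792 CPM. The part of these markers was not tested.

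After aGC most of the genes were lower in KO FT than in WT FT mice. Of 49 members 38 were lower, 3 were higher and 8 did not pass, where 26.5% of all genes were lower and 25.4% higher. The median was -0.38 on the log2 scale, a ratio of 0.766, beside 0.00 over all genes, and the range was -0.76 to 0.30. For 27 members every KO FT library lay below every WT FT library (9.39% of all genes). In females 30 members were lower (24.4% of all genes) and in males 41 (22.4%), and 30 were lower in both sexes (12.2%). When the third library of KO FT aGC males was left out, 6 members were higher in place of 3. With 1 profile per group no member passed after adjustment and 24 had an unadjusted p under 0.05, while 0% of all genes passed in either direction.

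The lower values covered most roles. All 3 box C/D genes, all 4 box H/ACA genes and all 6 nucleolar proteins were lower, as were 7 of 11 genes of the SSU processome, 4 of 6 late 40S genes and 13 of 15 pre-60S genes, but 1 of 4 RNA polymerase I genes. The strongest by adjusted p were Nop16 (log2 -0.63 ± 0.03, adjusted p = 2.28e-12), Nop56 (-0.52 ± 0.03, adjusted p = 2.40e-11) and Npm1 (-0.55 ± 0.04, adjusted p = 5.88e-11), all without overlap in the library levels given above. Nhp2 had the largest difference, at 0.593 of the WT FT level. By sex, Npm1 was at -0.84 in males and -0.26 in females, and Nop56 at -0.57 and -0.46. The genes that were higher in KO FT mice were Polr1a (log2 0.30 ± 0.07, adjusted p = 0.00142), Rrn3 (0.25 ± 0.06, adjusted p = 6.42e-04) and Rrp12 (0.20 ± 0.05, adjusted p = 0.00102). Of these Rrn3 was higher in both sexes, Polr1a was at -0.16 in females and 0.76 in males, and Rrp12 was at 0.36 in females and 0.04 (adjusted p = 0.615) in males. The 8 that did not pass were Polr1b, Utp15, Utp20, Heatr1, Ddx10, Tsr1, Noc3l and Nle1.

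**Figure D4:**
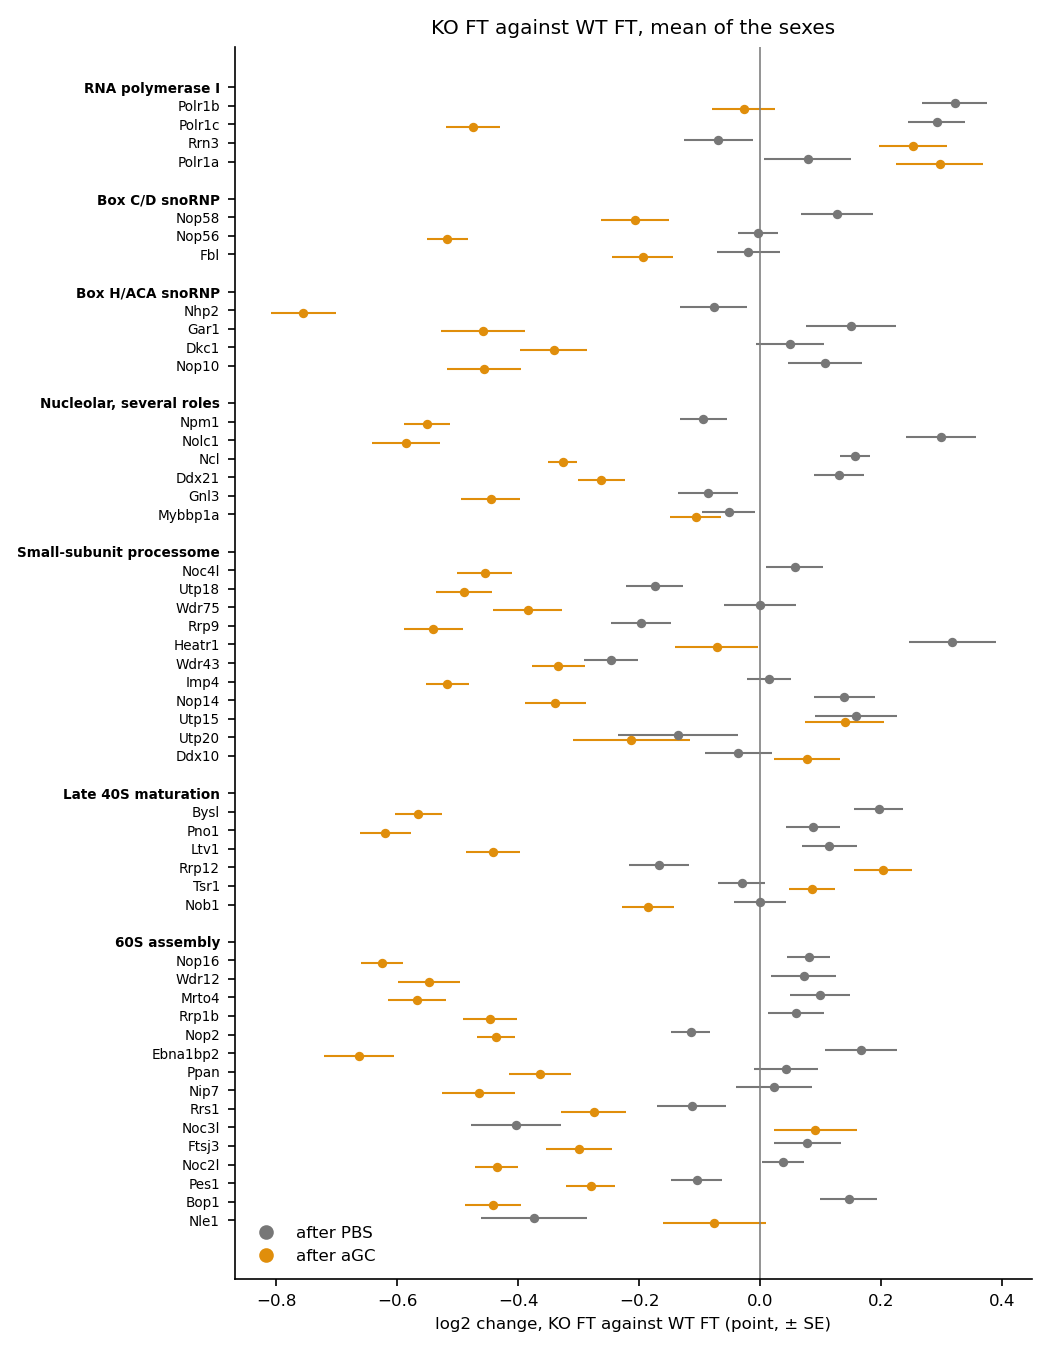
Log2 difference between KO FT and WT FT mice of each of the 49 genes after PBS and after aGC, grouped by role, with its SE. After PBS the genes scatter around 0, and after aGC 38 of 49 are lower in KO FT mice.

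The other genes of the pathway were also mostly lower in KO FT mice after aGC: 26 of 35 small subunit genes against 3 higher, 29 of 42 large subunit genes against 6, 9 of 11 snoRNP genes against 1, and 12 of 13 exosome genes against 0. Of all genes tested 26.5% were lower and 25.4% higher, and the counts that follow are to be read against these shares. Among the other RNA polymerase I genes Polr1d, Polr1e, Cd3eap, Znrd1, Taf1b and Taf1d were lower, Ubtf and Ttf1 were higher, and the rest did not pass. RNA polymerase III was split, with 7 of 21 lower and 7 higher. Cell type markers differed in the same comparison: 7 of 10 iNKT markers were higher and 1 lower in KO FT mice (their sum was 4592 to 4796 CPM in WT FT and 4904 to 5399 CPM in KO FT libraries), and 3 of 8 tested B cell markers were lower and 0 higher. Of 10 naive T cell markers 4 were higher, among them Klf2 (0.30), and 2 lower, Ccr7 (-0.47) and Dapl1 (-0.50, log2). Of the regulatory T cell markers Ctla4 (-0.49) and Izumo1r (-0.25) were lower, while Foxp3 and Ikzf2 did not pass. After aGC Cd8a was at 239 to 251 CPM in WT FT and 181 to 199.5 CPM in KO FT females, but at 5.54 to 6.91 CPM in WT FT and 7.17 to 8.10 CPM in KO FT males, and over both sexes it did not pass (log2 -0.05 ± 0.06, adjusted p = 0.548). Cd8b1, the partner chain of Cd8a, was lower in KO FT mice (log2 -0.60 ± 0.04, adjusted p = 3.42e-11) and lower in each sex. The part of these markers in the difference was not tested. Myc was lower in KO FT mice after aGC, at 0.73 of the WT FT level (log2 -0.45 ± 0.05, adjusted p = 9.72e-08). Over both sexes it did not pass after PBS (log2 -0.09 ± 0.05, adjusted p = 0.216). In the PBS levels given above, every KO FT library of Myc lay above every WT FT library in females and below in males.

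The differences after aGC were related to gene length. Across the 49 members the log2 difference had a Spearman's rho of 0.53 with the length of the coding transcript (0.46 with exon length), and across 15942 genes rho with exon length was 0.24. All these values come from the same libraries. The coding transcripts of the genes that were higher in KO FT mice, Polr1a, Rrp12 and Rrn3, have 9216, 4340 and 3582 bases. Of the 8 that did not pass, Utp20 is the longest at 8821 bases and Nle1 the shortest at 1783, while Nhp2 has 1042 and Nop16 1273. For the aGC response within a transplant the relation was weaker among members, at -0.22 in WT FT and 0.002 in KO FT mice. For the difference of that response between transplants, rho among members was 0.395 with coding transcript length and 0.378 with exon length. Over all genes it was 0.195 with exon length. The part of length in the differences between transplants was not tested.

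**Figure D5:**
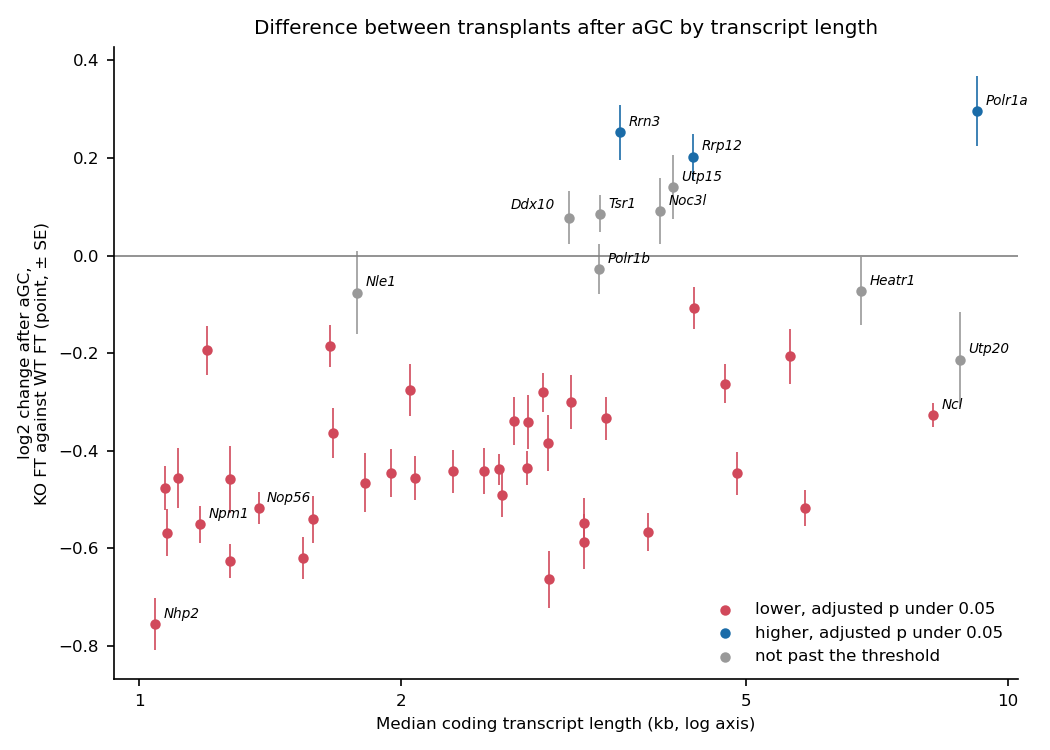
Log2 difference between KO FT and WT FT mice after aGC (vertical axis) against the length of the coding transcript in kilobases (log axis) for the 49 genes; colour gives the test result and bars are SE. Short genes such as Nhp2 lie lowest and long ones such as Polr1a lie near or above 0, with a Spearman's rho of 0.53.

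The response itself was tested for a difference between transplants. Of the members 36 rose less in KO FT than in WT FT mice, 3 rose more and 10 did not pass, beside 22.6% and 21.9% of all genes with a lower and a higher response. The median difference was -0.39 on the log2 scale (all genes 0.01), and 42 of the 49 point estimates were larger in WT FT mice. The lowest adjusted p-values were those of Nop16 (-0.70 ± 0.05, adjusted p = 5.09e-10), Ncl (-0.48 ± 0.04, adjusted p = 7.12e-10) and Bysl (-0.76 ± 0.06, adjusted p = 1.01e-09), and Nolc1 had the largest difference (-0.88 ± 0.08). The difference held in each sex for Nop16 (-0.66 in females and -0.75 in males), Ncl (-0.42 and -0.55) and Bysl (-0.73 and -0.80). The response was larger in KO FT mice for Noc3l (0.49 ± 0.10, adjusted p = 3.58e-04), Rrp12 (0.37 ± 0.07, adjusted p = 1.41e-04) and Rrn3 (0.32 ± 0.08, adjusted p = 0.0022). Rrn3 changed sign between sexes, 0.90 in females and -0.26 in males, and Noc3l passed in males (0.81) but not in females (0.18), differences between the sexes that were not tested. Without the third library of WT FT PBS males, or of KO FT PBS males, the count of larger responses was 5 in place of 3. With 1 profile per group no member passed after adjustment and 13 had an unadjusted p under 0.05, again with 0% of all genes passing in either direction.

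The response differed between the sexes for many members, as for many of all genes tested, and in no common direction. It was larger in males for 17 and larger in females for 14, with 18 that did not pass, where 27.1% and 24.1% of all genes differed in these directions, and the median was -0.03 beside 0.02 over all genes. The majority turned between transplants: in WT FT mice alone 18 responses were larger in males and 12 in females (24.2% and 23.5% of all genes), and in KO FT mice alone 10 and 19 (25.3% and 21.4%). The lowest adjusted p-values were those of Npm1 (log2 difference 0.50 ± 0.05, adjusted p = 5.77e-08), Pes1 (-0.48 ± 0.06, adjusted p = 3.20e-07) and Utp20 (1.14 ± 0.14, adjusted p = 3.40e-07), the last being the sole member with a difference of 2-fold or more (9.11% of all genes in that direction). Pes1 in WT FT mice stood at 112, 114 and 98.8 CPM in PBS females, 126, 128 and 132 CPM in PBS males, 288, 291 and 286 CPM in aGC females and 248, 258 and 234 CPM in aGC males. Pes1 in KO FT mice stood at 99.3, 104 and 112 CPM in PBS females, 116, 112 and 115 CPM in PBS males, 256, 256 and 237 CPM in aGC females and 196, 181 and 202 CPM in aGC males. Pes1 was higher in aGC females than in aGC males of either transplant, while its PBS libraries had the males slightly higher. Npm1 and Utp20 went the other way. With 1 profile per group no member passed and 1 had an unadjusted p under 0.05, where 0.0752% of all genes had a larger response in males and 0.558% in females. Sex and the split in Cd8a cannot be told apart in this comparison, since aGC went with high Cd8a in females (means of 6.30 CPM after PBS and 245 CPM after aGC in WT FT, 5.20 and 189 CPM in KO FT mice) and with low Cd8a in males (287 and 6.22 CPM, and 136 and 7.59 CPM).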

How the data were processed

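RNA of sorted mesenteric lymph node iNKT cells was sequenced in 24 libraries, made with a Nextera XT kit that keeps no strand, per the labels' protocols. The authors deposited estimated counts, whole numbers for each gene, from kallisto on GRCm38 (mm10), per the submitters' processing notes. Of the kallisto version, annotation, gene summing and sort gate, none is given in the sources used here. Symbols, positions and lengths came from GENCODE M21, matched by Ensembl identifier, with 54587 of 55335 exact, and 42058 genes had a count. Genes were filtered with filterByExpr (minimum count 10, total 15), so 15953 were tested. TMM scaled the counts, which were fitted with edgeR 4.0.16 (quasi-likelihood, R 4.3.3) on all 24 libraries with 8 group means and 16 residual degrees of freedom. Contrasts weighted the sexes equally, tests were two-sided, and p-values were adjusted by Benjamini-Hochberg over all tested genes at 0.05. Each SE was taken as the log2 estimate over the root of its F statistic. Length is the median of annotated coding transcripts. Shared 31-base words were counted between annotated transcripts, and reads of such genes may have been split between copies. The script was tested on simulated counts. Intervals from a count of 0 cover counting error only.

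The members, the role classes and the other lists were chosen with earlier results of these data known. Values by library are given for the 2 members with the largest and the 1 with the smallest average aGC response in each role class, the 3 with the lowest adjusted p in each other comparison and the 5 highest per length. Rrn3, Rrp12 and other members named with values were singled out after their values were seen. Each other list is represented by at most 3 genes, those of lowest adjusted p, plus at most 2 that missed the threshold. Values of some single genes that the rule names are not reported here. Libraries of a group differed by more than counting error (chi-square per degree of freedom 4.10 to 16.4), so none was taken as a repeat deposit. Alternatives were RLE and upper-quartile scaling, no filter, DESeq2 1.42.0, a replicate block, each sex, each transplant, the groups with low Cd8a, 1 profile per group (3 residual degrees of freedom) and leaving out each library.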

Additional observations from a re-analysis of the deposited data

Results flagged for a closer look

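The response to aGC differed between transplants by a test of the difference itself for 39 of the 49 genes: 36 responses were lower and 3 higher in KO FT than in WT FT mice, beside 22.6% and 21.9% of all genes. When each group was summed to 1 profile, 0 members passed after adjustment. Among the genes singled out for the lowest adjusted p, the log2 difference was -0.70 for Nop16, -0.48 for Ncl and -0.76 for Bysl. The opposite direction was found for Noc3l (0.49), Rrp12 (0.37) and Rrn3 (0.32). These 6 genes are known for work on the large subunit (Nop16, Noc3l), the small subunit (Bysl), both (Rrp12), the precursor RNA (Ncl) and the start of its transcription (Rrn3).

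The response also differed between the sexes by a test of the difference itself, with 17 responses larger in males and 14 larger in females, beside 27.1% and 24.1% of all genes. Such differences were thus common over all genes and not particular to the members. No member (0 of 49) passed after adjustment with 1 profile per group, and the majority was 18 larger in males against 12 in WT FT mice but 10 against 19 in KO FT mice. The log2 difference, males minus females, was 1.14 for Utp20, 0.50 for Npm1 and 0.32 for Nop16. It was -0.48 for Pes1, -0.46 for Nob1 and -0.32 for Noc2l. Cd8a was high in aGC females and low in aGC males, and the part of that split in these differences was not tested.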

How the results depend on the processing

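Counts of members kept their size, within 1.5 times, in 179 of 200 alternatives that left out no library, and in 572 of 576 that left out 1. A count of 0 in both settings was taken as kept, which raises these totals. With 1 library left out, that was always so for members that fell from PBS to aGC and for most 2-fold counts. Named members kept direction and call in all 2928 values with 1 library left out. With upper-quartile factors 5 members were higher in KO FT mice after aGC and 5 had a higher response there, and without a filter 9 responses were larger in females. In females alone 18 members were higher in KO FT mice after PBS and 7 after aGC, 7 had a higher response in KO FT mice, and 1 a lower response by 2-fold. In males alone 16 were lower in KO FT mice after PBS and 1 had a lower response by 2-fold. Between PBS females and aGC males 1 member was lower in WT FT mice. The sex difference gave 0 responses larger in males by 2-fold in WT FT mice alone, and 10 larger in males in KO FT mice alone, where 19 were larger in females. With 1 profile per group the counts were 0 in either direction for transplant after PBS, transplant after aGC, response by transplant and response by sex, with 0, 24, 13 and 1 members at an unadjusted p under 0.05, and 0 differed by 2-fold between sexes. Its spread between groups (biological coefficient of variation 0.424, 3 residual degrees of freedom) limits what it can call.

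Among the responses of the 49 members in each transplant and the genes named for the lowest adjusted p in the other comparisons, 6 values that passed over both sexes turned sign within a sex. In females these were Utp20 after aGC in KO FT mice (-0.016), KO FT against WT FT after PBS for Polr1b (-0.085) and Noc3l (0.15), and after aGC for Polr1a (-0.16). In males these were Polr1a after aGC in WT FT mice (-0.12) and the response difference of Rrn3 (-0.26). Between PBS females and aGC males Rrn3 turned to -0.20 in WT FT mice. The cause was not tested. Over all 49 members, passed or not, the sign in females and in males was opposite to that over both sexes for 11 and 15 after PBS, 9 and 3 after aGC, and 6 and 7 for the response by transplant. Leaving out 1 library gave 49 rises in each transplant, 42 by 2-fold in WT FT and 31 to 34 in KO FT mice. It gave 6 to 10 members higher and 7 to 9 lower in KO FT mice after PBS, 3 to 6 and 37 to 39 after aGC, 3 to 5 and 36 to 37 for the response by transplant, and 16 to 18 and 13 to 15 by sex, with 1 by 2-fold.

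Replicate numbers are shared by the groups but did not pair the libraries: over 8359 genes, 84 pairs of the same number had a median correlation of deviations of -0.02 (range -0.27 to 0.43), against 0.002 for other pairs. With a replicate block 9 members in place of 10 were higher in KO FT mice after PBS, 49 rose in each transplant, and 38 were lower in KO FT mice after aGC.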
